A study of Homo sapiens with 6 samples.

Results

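The p53 pathway was examined in NALM6 cells, a human line of B cell precursor acute lymphoblastic leukemia, through 31 genes that regulate p53 or are well-known targets of it. The genes were listed by name from general knowledge of the pathway, with earlier results of these data known. Of the 57905 genes in the count table, 31 are on the list. RNA-SEQ libraries had been made from cells of this single line given DMSO, the solvent of the drug, and from cells given 500 nM of THZ1, a covalent inhibitor of the transcriptional and cell cycle kinase CDK7, with 24 h of exposure and 3 libraries per treatment. The 2 treatments differ only in the drug as far as the labels say, and the labels name no genetic change in either. The labels do not say whether the 3 libraries of a treatment came from separate cultures, so the p-values measure the spread between these libraries, which may be technical. The comparison asks how the transcripts of the pathway differ after CDK7 inhibition.

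p53 is a transcription factor that is kept scarce in resting cells by MDM2, a ubiquitin ligase that marks it for destruction, with the help of MDM4, a relative of MDM2 that also masks the activating region of p53. Damaged DNA, stalled transcription, nucleolar stress and lack of nutrients release p53 from this restraint, and it then binds response elements near its target genes. The targets slow the cell cycle, repair DNA, adjust metabolism and redox state, or promote cell death, and MDM2 itself is a target, which closes a negative feedback loop. Many of the same targets also respond to other stress regulators, so their transcripts are not a readout of p53 alone.

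The response element was looked for in the GRCh37 sequence within 2500 bases on either side of the start of the canonical transcript of each gene. That start can lie inside the gene's span, and distances are from it to the middle of the site. It is made of a pair of 10-base motifs set side by side, each with a fixed C and G in its core. A site of 20 bases was accepted with at most 1 mismatch outside these fixed letters. The element reads alike on both strands, so each site was counted once. Of the 31 genes, 7 (22.6%) held such a site, against 96 of the 16092 genes tested that have coordinates (0.597%). This share is a description, because the genes were listed as p53 targets in the first place. The sites of 6 of these genes are shown, since such elements are what p53 binds. The 20 bases of the site are in capitals, 5 bases on either side are in lower case, and the strand is that of the gene. The remaining gene with a site was called higher with THZ1, and its site is not reported here. Those of PLK2, at chr5:57758101-57758120 and 2198 bases before the start on the minus strand, and of ZMAT3, at chr3:178787976-178787995 and in an intron 1611 bases after it on the minus strand, match in full. The 4 others have 1 mismatch each. They lie in an intron of GADD45A (chr1:68152458-68152477, plus strand), an intron of CCNG1 (chr5:162864932-162864951, plus strand), an exon of DDB2 (chr11:47236520-47236539, plus strand, 4 bases after the start) and an intron of EDA2R (chrX:65858555-65858574, minus strand).
PLK2: atgagAAACATGCCTGGACTTGCCCtgcac
ZMAT3: tcataAAACAAGTCCAGACATGCCTaggca
GADD45A: gtacaGAACATGTCTAAGCATGCTGgggac
CCNG1: tgtgaGCACAAGCCCAGGCTAGTCCgaggc
DDB2: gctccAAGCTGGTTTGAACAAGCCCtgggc
EDA2R: tctgaGAACATGCCTGGACGTGTCCaacaa

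The genes shown do not share a response to the drug. PLK2, ZMAT3 and GADD45A were among the strongest increases on the list, DDB2 rose little, CCNG1 did not pass the test, and EDA2R was close to undetected, as the values below give. A site of this form was found in 5 of the 21 genes called higher (23.8%). A match names letters in a window and does not show binding, and a window without a match says nothing about p53.

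The DMSO-treated libraries held 11015480 to 11164840 gene counts, against 7876402 to 8314306 in the THZ1-treated libraries, so a treated value carries more counting error at an equal level. Every DMSO-treated library was deeper (exact permutation test, two-sided, p = 0.1, which is the lowest value 3 libraries against 3 can reach). Levels are given as CPM, the counts divided by the TMM-scaled library size and put on the usual CPM scale, with 3 counts worth 0.246 to 0.253 CPM in the DMSO-treated and 0.394 to 0.415 CPM in the THZ1-treated libraries. Transcripts of the mitochondrial genome took 4.32 to 4.37% of the counts with DMSO and 12.6 to 13.6% with THZ1. All 9 B cell precursor markers had counts, with a summed level of 3454 to 3721 CPM under DMSO and 1644 to 1739 CPM under THZ1. The markers of other lineages were low, from 0 to 0.165 CPM and from 0.263 to 0.277 CPM for the T cell list (3 of 4 with counts, CD8A at 0), from 3.88 to 4.59 CPM and from 17.3 to 18.4 CPM for the myeloid list (5 of 5), from 0.164 to 0.253 CPM and from 3.61 to 3.81 CPM for the erythroid list (4 markers with counts), and from 11.3 to 12.98 CPM and from 18.5 to 20.8 CPM for the stromal list (4 of 4). Their part in the results was not tested, and neither was that of the mitochondrial share.

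Most of the p53 regulators and targets were higher in THZ1-treated cells, and the restraining pair MDM2 and MDM4 was lower. Of the 31 genes, 27 passed the filter on low counts and were tested. By edgeR's quasi-likelihood test at an adjusted p below 0.05, 21 were called higher, 4 lower, and 2 were not called. The shares, 77.8% higher and 14.8% lower, stand beside 43.5% and 41.1% of all 16622 genes tested. They are a description, because the list was made with earlier results of these data known. Among the 11929 protein-coding genes tested, 36.3% were higher and 47.6% lower. An increase of at least 1.5 on the log2 scale was reached by 13 of the 27, against 24.6% of all genes tested, whereas the deepest decrease among them was −1.19 and 12.9% of all genes tested fell by at least 1.5. PLK2 and SFN, counted in both the 21 and the 13, passed the filter only through their THZ1-treated libraries, so neither could be called lower. With at least 10 counts in every library they are left out, and 19 of 25 genes were higher and 4 lower. In that setting, 5151 of all genes tested were higher and 5421 lower. The libraries of both treatments did not overlap in 26 of the 27 genes, but this was also the case for 84.7% of all genes tested. The median log2 fold change was 1.42, with quartiles at 0.40 and 2.84, and that of all genes tested was 0.03. In bulk RNA, a change in the mix of living and dying cells and a change of RNA per cell cannot be told apart.

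**Figure D1:**
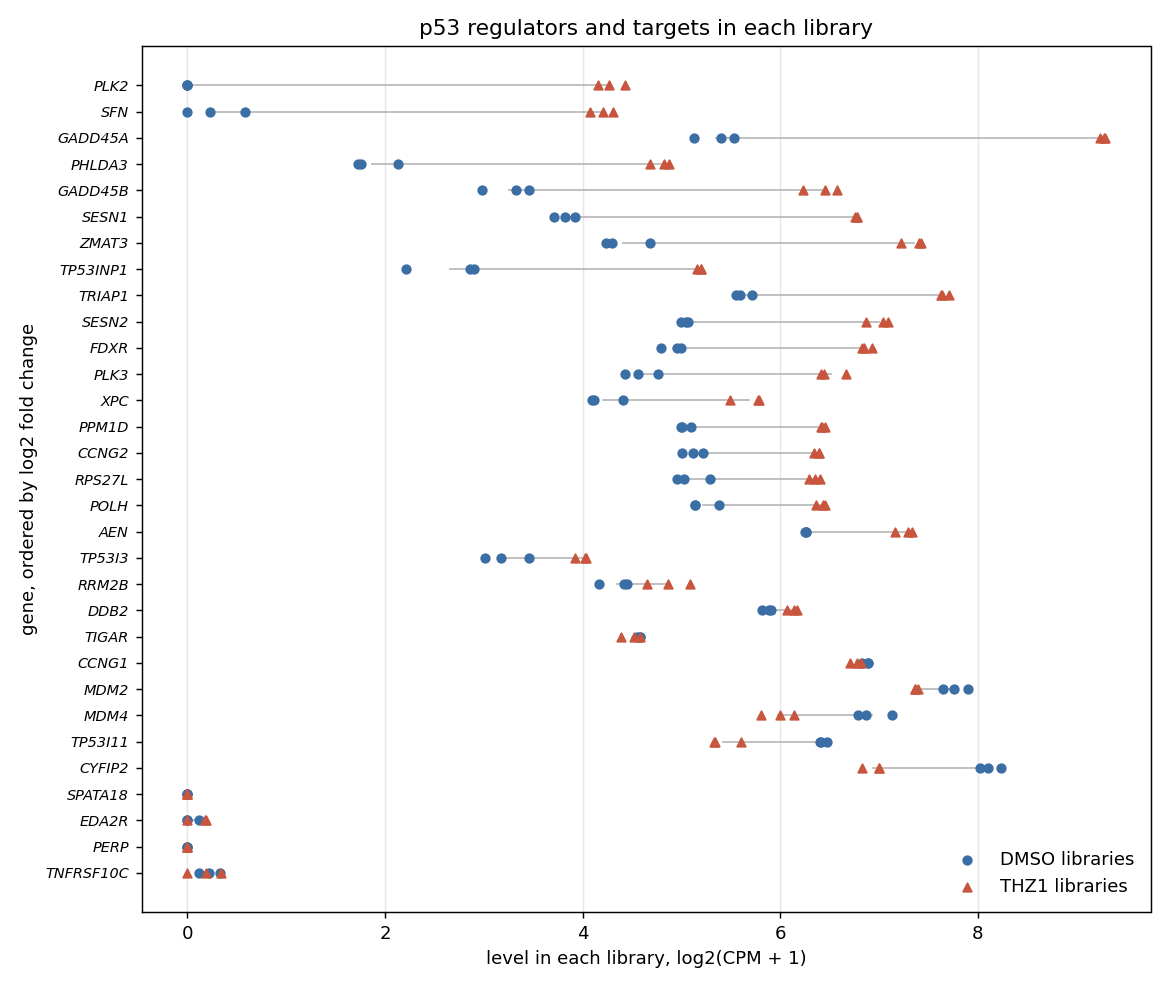
Levels of the p53 regulators and targets in each library, with one row per gene, ordered by log2 fold change, and log2(CPM + 1) on the x axis. Blue circles are DMSO-treated libraries, red triangles THZ1-treated libraries, and a grey line joins the group means. GADD45A moved from 33.8 to 45.1 CPM with DMSO to 603 to 623 CPM with THZ1, while TIGAR overlapped between the treatments.

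**Figure D2:**
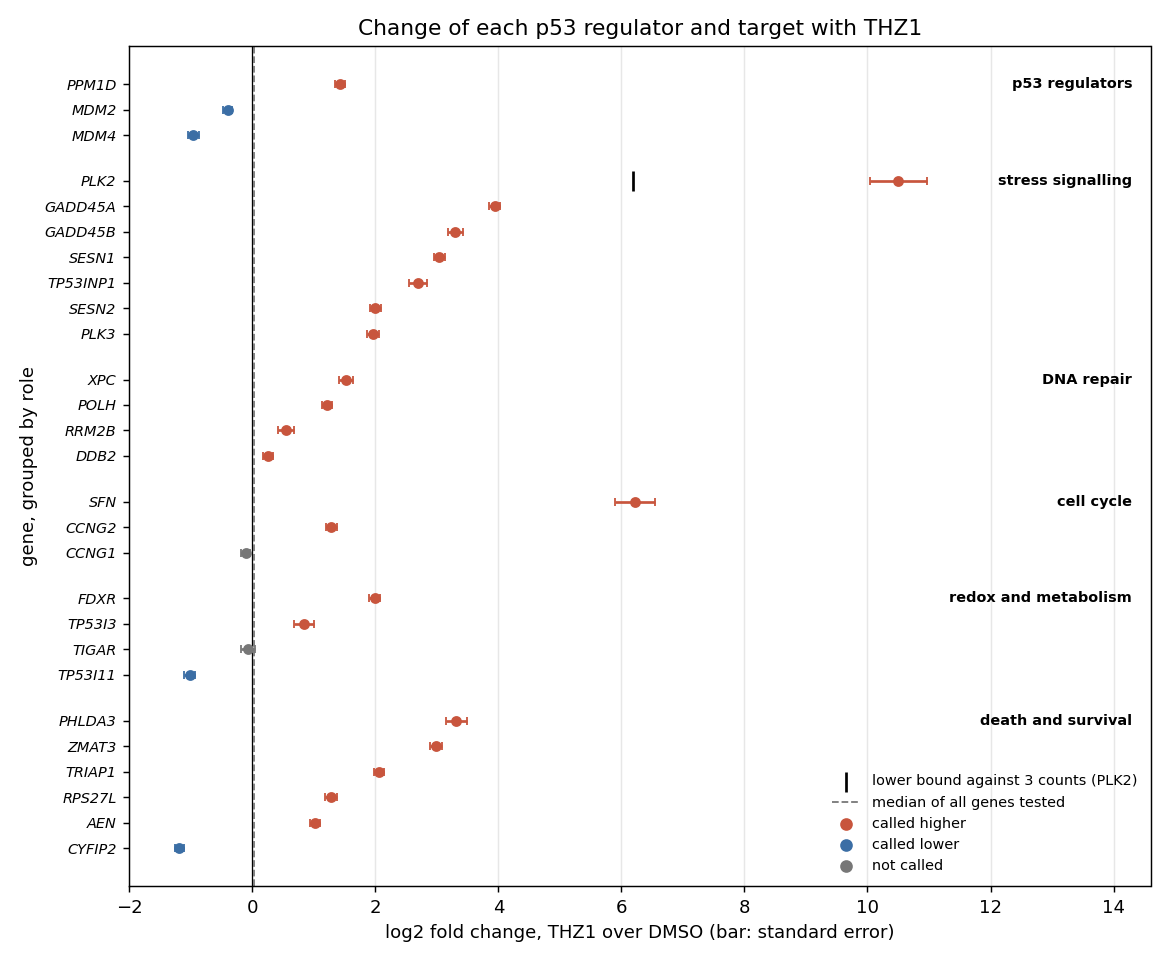
Log2 fold change of THZ1 over DMSO for the 27 genes tested, grouped by role, with bars for the standard error, a dashed line at the median of all genes tested, and a tick at the lower bound for PLK2. All 7 stress signalling and all 4 DNA repair genes lie right of zero, and MDM2, MDM4, TP53I11 and CYFIP2 lie left of it.

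The regulators of p53 did not move together. MDM2 (chr12:69201957-69239324, plus strand), the main ubiquitin ligase of p53, was at 215, 238 and 199.7 CPM in the DMSO-treated libraries and at 167, 164 and 164 CPM in the THZ1-treated libraries. Its treated values were nearly alike and all below the DMSO range, with a log2 fold change of −0.40 (SE 0.07, edgeR adjusted p = 7.3e-06). MDM4 (chr1:204485507-204527248, plus strand), its relative that holds p53 inactive, was at 116, 139.7 and 109 CPM with DMSO and at 69.4, 63.1 and 54.9 CPM with THZ1. The groups of MDM4 did not overlap, and its level fell by 0.96 on the log2 scale (SE 0.09, edgeR adjusted p = 4.0e-11). PPM1D (chr17:58677554-58743641, plus strand) encodes WIP1, a phosphatase that removes activating phosphates from p53 and its kinases and is itself a p53 target. In contrast to MDM2 and MDM4 it rose, from 31.2, 30.98 and 33.2 CPM to 84.9, 84.3 and 86.4 CPM, with a log2 fold change of 1.42 (SE 0.08, edgeR adjusted p = 3.4e-16). MDM2 and PPM1D, both targets of p53 as well as its regulators, thus moved in opposite directions. Of the neighbours of MDM2, 2 lie across it on the opposite strand. The gene of carboxypeptidase M (symbol CPM, not the unit) was at 581 to 730 counts with DMSO and 89 to 104 with THZ1. The long non-coding RNA gene ENSG00000257181 was at 856 to 1073 and 152 to 174 counts. On the same strand as MDM2, the long non-coding RNA gene ENSG00000256325 had 0 to 4 counts with DMSO and 23 to 27 with THZ1. The strand setting of the counting is not given in the sources used here, so reads shared between MDM2 and these genes cannot be told apart.

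All 7 genes of stress signalling rose, with a median log2 fold change of 3.04, where 43.5% of all genes tested were called higher. Apart from PLK2, with 0 counts in the controls, their fold changes lay between percentiles 79.5 (PLK3) and 89.9 (GADD45A) of all genes tested. GADD45A (chr1:68150884-68154017, plus strand), a small stress protein that activates MAP kinase signalling and binds PCNA, was at 41.3, 33.8 and 45.1 CPM with DMSO and at 603, 619 and 623 CPM with THZ1. Every treated library was far above every control, with means of 615 ± 10.7 CPM against 40.1 ± 5.75 CPM (SD, n = 3), which is a 15.3-fold increase with a log2 fold change of 3.94 (SE 0.09, edgeR adjusted p = 2.5e-27). Its relative GADD45B (chr19:2476120-2478257, plus strand), which also activates MAP kinases, rose from 9.01, 6.88 and 9.96 CPM to 74.03, 94.4 and 86.5 CPM. The log2 fold change of GADD45B was 3.30 (SE 0.12, edgeR adjusted p = 1.1e-21). Both GADD45 genes were thus lower in every control than in any treated library.

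PLK2 and PLK3 encode polo-like kinases that respond to stress. PLK2 (chr5:57749809-57755966, minus strand), which carries the full response element shown above, had 0 counts in each DMSO-treated library and 128, 132 and 154 counts in the THZ1-treated libraries, or 16.8, 18.3 and 20.6 CPM. Against a floor of 3 counts per library its level was at least 73.3-fold higher, a bound of 6.20 on the log2 scale, and it was called higher by edgeR (adjusted p = 8.8e-19). PLK2 passed the low-count filter only through the treated libraries, so a lower call was not possible and the p-value adds no support. No read of PLK2 was thus counted in any control, while each treated library held many. PLK3 (chr1:45266049-45271662, plus strand) was already present with DMSO, at 20.6, 22.5 and 26.2 CPM, and rose to 86.3, 101 and 84.4 CPM, with a log2 fold change of 1.97 (SE 0.10, edgeR adjusted p = 4.2e-18). DYNLT4, on the opposite strand across PLK3, went from 5 to 15 counts to 336 to 390 counts, and a share of reads between them was not tested.

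The sestrins SESN1 and SESN2 hold back the nutrient-sensing kinase complex mTORC1, and both rose. SESN1 (chr6:109305512-109416049, minus strand) went from 14.2, 12.05 and 13.2 CPM to 109, 107 and 109 CPM, with a log2 fold change of 3.04 (SE 0.09, edgeR adjusted p = 1.9e-23). SESN2 (chr1:28586029-28609002, plus strand) went from 32.4, 32.1 and 30.97 CPM to 136, 131 and 116 CPM, with a log2 fold change of 2.001 (SE 0.08, edgeR adjusted p = 5.5e-20). The treated libraries of SESN1 were nearly alike, with an SD of 0.949 CPM, and no library of either gene fell in the range of the other treatment. ENSG00000271730, a long non-coding RNA gene opposite SESN1, had 25 to 34 counts with DMSO and 159 to 179 with THZ1. TP53INP1 (chr8:95938200-95961606, minus strand), a nuclear and autophagy protein that promotes p53 phosphorylation, was at 6.28, 6.47 and 3.63 CPM and rose to 34.7, 35.7 and 35.8 CPM, with a log2 fold change of 2.69 (SE 0.15, edgeR adjusted p = 7.8e-17).

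The 4 DNA repair genes all rose, with a median log2 fold change of 0.88, but by unequal amounts, and RRM2B and DDB2 not in every setting. Of all genes tested, 43.5% were called higher. XPC (chr3:14186647-14220121, minus strand), which recognises distorted DNA in nucleotide excision repair, was at 20.3, 16.1 and 16.4 CPM with DMSO and 54.3, 53.7 and 43.98 CPM with THZ1. Its log2 fold change was 1.53 (SE 0.11, edgeR adjusted p = 6.6e-14). POLH (chr6:43543922-43588260, plus strand), the polymerase that copies past ultraviolet lesions, rose from 34.1, 40.7 and 34.3 CPM to 81.4, 86.7 and 85.2 CPM, with a log2 fold change of 1.21 (SE 0.09, edgeR adjusted p = 5.0e-14). Both were above the control range in each treated library. RRM2B (chr8:103216730-103251189, minus strand), the p53-inducible subunit of ribonucleotide reductase, which supplies nucleotides for repair, was at 20.8, 20.3 and 16.96 CPM and then at 24.1, 32.9 and 28.1 CPM. This smaller increase had a log2 fold change of 0.55 (SE 0.12, edgeR adjusted p = 1.5e-04) and was not called on the FPKM values (0.24, limma adjusted p = 0.156). DDB2 (chr11:47236016-47260768, plus strand), which finds ultraviolet damage and hands it to XPC, was at 59.2, 55.2 and 58.3 CPM with DMSO and 70.9, 66.3 and 69.7 CPM with THZ1. Its groups were separate but close, with a log2 fold change of 0.26 (SE 0.08, edgeR adjusted p = 0.00405), and with library sizes alone the value was 0.01 and not called (adjusted p = 0.884). Opposite DDB2, the gene ENSG00000256897 went from 6 to 11 counts to 133 to 161 counts.

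Among the 3 cell cycle genes, SFN and CCNG2 rose and CCNG1 was not called. SFN (chr1:27189640-27190947, plus strand) encodes stratifin, an adaptor that binds phosphorylated proteins and restrains entry into mitosis, and its transcript was nearly absent in controls, with 6, 0 and 2 counts. The THZ1-treated libraries had 121, 136 and 131 counts, or 15.9, 18.8 and 17.5 CPM. The ratio of the summed counts, divided by the TMM-scaled library sizes, was 78.6 with an exact 95% interval of 39.5 to 183, which covers counting error only. The fitted log2 fold change was 6.22 (SE 0.33, edgeR adjusted p = 1.4e-17), 7.48 without DMSO replicate 1 and 5.62 without DMSO replicate 2. Each treated library thus had many more SFN counts than any control, and the size of the change rests on few control counts. SFN also passed the low-count filter only through the treated libraries, so a lower call was not possible. CCNG2 (chr4:78078360-78354542, plus strand), an atypical cyclin linked to cell cycle arrest, went from 31.3, 33.6 and 36.2 CPM to 83.1, 83.2 and 80.3 CPM, with a log2 fold change of 1.29 (SE 0.09, edgeR adjusted p = 7.3e-15). CCNG1 (chr5:162864575-162873157, plus strand), which brings a phosphatase to MDM2, was at 113, 118 and 118 CPM with DMSO and 112, 109 and 104 CPM with THZ1. The groups of CCNG1 were close to each other, and its log2 fold change of −0.10 (SE 0.07) did not pass the edgeR test (adjusted p = 0.179). It was called lower with library sizes alone (−0.35) and on the FPKM values (−0.27), and was 0.09 and not called with upper quartile factors.

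The 4 genes of redox balance and metabolism moved in different directions. FDXR (chr17:72858619-72869156, minus strand), the mitochondrial ferredoxin reductase, rose from 29.9, 26.8 and 30.9 CPM to 114, 121 and 113 CPM, with a log2 fold change of 1.99 (SE 0.08, edgeR adjusted p = 7.7e-20). TP53I3 (chr2:24300303-24308731, minus strand), a quinone oxidoreductase, rose less, from 8.02, 7.05 and 9.96 CPM to 15.3, 14.1 and 15.4 CPM, with a log2 fold change of 0.84 (SE 0.16, edgeR adjusted p = 1.3e-05). Both were above their controls in each treated library. TIGAR (chr12:4416929-4469194, plus strand), a phosphatase that slows glycolysis, was at 22.98, 22.5 and 22.95 CPM with DMSO and 19.99, 21.9 and 22.99 CPM with THZ1. This was the only gene of the 27 whose groups overlapped, and its log2 fold change of −0.08 (SE 0.11) did not pass the edgeR test (adjusted p = 0.53). With library sizes alone it was called lower (−0.32), as on the FPKM values (−0.62), whereas with upper quartile factors it was 0.12 and not called. TP53I11 (chr11:44907454-44972857, minus strand) was lower, at 83.8, 84.3 and 88.1 CPM with DMSO and 39.2, 47.8 and 39.6 CPM with THZ1, and it fell by 1.02 on the log2 scale (SE 0.09, edgeR adjusted p = 3.5e-12).

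Of the 10 genes of cell death and survival, 6 were tested, and 5 of these rose while CYFIP2 fell. Of all genes tested, 43.5% were called higher and 41.1% lower. PHLDA3 (chr1:201433406-201438365, minus strand), which keeps the survival kinase AKT from the membrane, went from 2.31, 2.38 and 3.38 CPM to 28.4, 27.4 and 24.7 CPM, with a log2 fold change of 3.32 (SE 0.17, edgeR adjusted p = 7.4e-18). The long non-coding RNA gene ENSG00000224818 overlaps PHLDA3 on the same strand and had 1 to 7 counts with DMSO and 68 to 82 with THZ1. ZMAT3 (chr3:178677909-178790003, minus strand), an RNA-binding zinc finger protein that affects splicing and mRNA stability, rose from 18.7, 24.7 and 17.9 CPM to 171, 148 and 168 CPM. It carries the other full response element shown above, and its log2 fold change was 2.99 (SE 0.10, edgeR adjusted p = 1.1e-22). The increases of PHLDA3 and ZMAT3 were the strongest of this class, and neither had a treated library near the controls.

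Genes that protect cells and genes that promote death rose side by side. TRIAP1 (chr12:120881767-120884187, minus strand), a mitochondrial protein that counteracts apoptosis, went from 45.97, 47.1 and 51.6 CPM to 198, 209 and 197 CPM, with a log2 fold change of 2.06 (SE 0.08, edgeR adjusted p = 1.8e-21). AEN (chr15:89164568-89175512, plus strand), a nuclease that enhances apoptosis, went from 75.7, 75.5 and 75.1 CPM to 160.4, 156 and 143 CPM, with a log2 fold change of 1.02 (SE 0.07, edgeR adjusted p = 5.0e-14). RPS27L (chr15:63418071-63450220, minus strand), a ribosomal protein paralogue, rose from 31.6, 30.1 and 38.1 CPM to 83.6, 77.4 and 80.9 CPM, with a log2 fold change of 1.28 (SE 0.09, edgeR adjusted p = 4.7e-14), and is uncertain so far as reads of its near copy RPS27 were shared. In contrast, CYFIP2 (chr5:156693089-156822603, plus strand), a subunit of the WAVE complex that directs actin assembly, was at 275, 300.3 and 258 CPM with DMSO and at 113, 127 and 127 CPM with THZ1. It had the deepest decrease on the list, falling by 1.19 on the log2 scale (SE 0.07, edgeR adjusted p = 1.4e-15).

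The 4 genes that were not tested all belong to the death class. SPATA18, of mitochondrial quality control, and PERP, a membrane protein of cell junctions and apoptosis, had 0 counts in all 6 libraries, which allows up to 3 counts in each. EDA2R, a death receptor of the TNF receptor family, had 0, 0 and 1 counts with DMSO and 1, 1 and 0 with THZ1. TNFRSF10C, a decoy receptor for the death ligand TRAIL, had 1, 2 and 3 counts with DMSO and 0, 1 and 2 with THZ1. At this depth no change in these 4 genes was detectable.

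**Figure D3:**
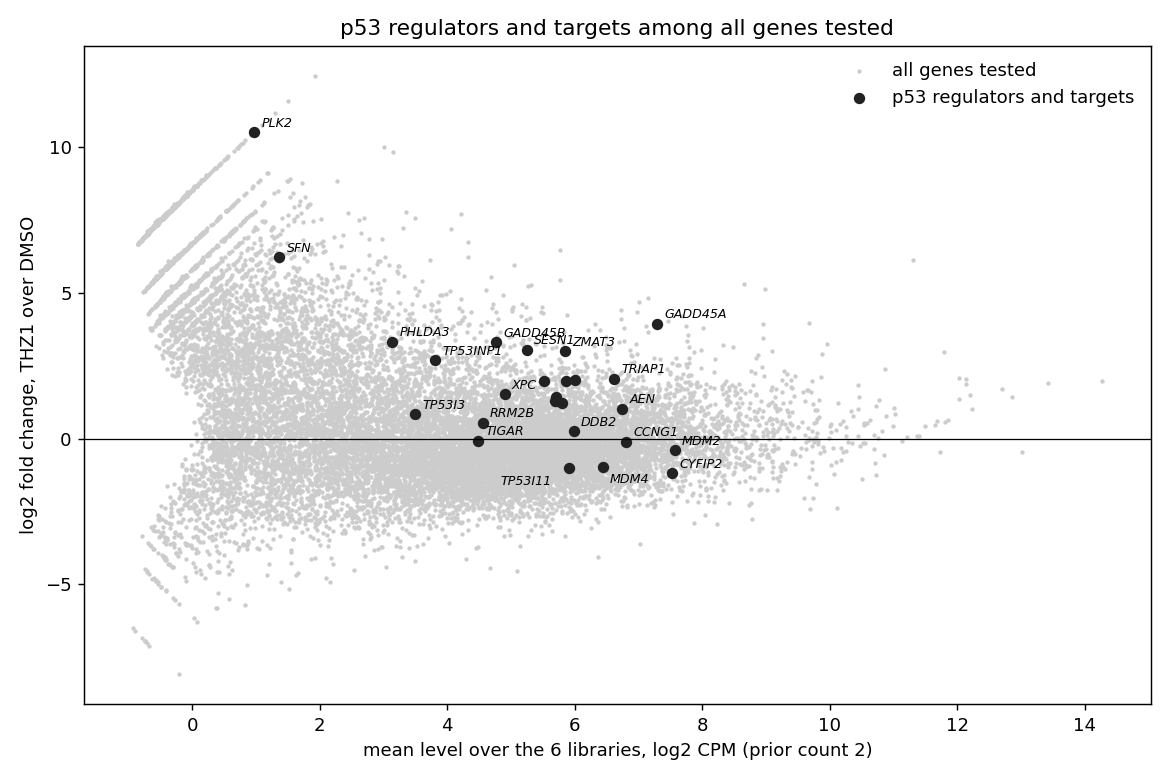
Log2 fold change of THZ1 over DMSO against the mean level over the 6 libraries for all 16622 genes tested in grey, with the 27 p53 regulators and targets in black. The fold changes of the black points run from CYFIP2 at −1.19 to SFN at 6.22 and PLK2 above it, within the range of the grey points.

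Related genes on the list responded unequally, as levels per kilobase of exon show. The length is that of all annotated exons of a gene merged, not of the transcript expressed. The size of a ratio between genes therefore depends on it, whereas the change of a ratio between treatments does not. GADD45A was at 20.8 CPM per kilobase with DMSO and 319 with THZ1, and GADD45B at 4.03 and 39.7, so that the ratio of the first to the second went from 5.04 to 5.46 up to 7.29 to 9.04 over the libraries. SESN2 was the more abundant sestrin in all libraries, but SESN1 gained on it, since the ratio of SESN1 to SESN2 went from 0.178 to 0.209 up to 0.381 to 0.447. CCNG1 exceeded CCNG2 by 7.80 to 8.66 times with DMSO and by 3.09 to 3.23 times with THZ1. The ratio of MDM2 to MDM4 went from 2.26 to 2.46 up to 3.19 to 3.96, because MDM4 fell further. In each of these 4 pairs the ratios of the treatments did not overlap. PLK3 was above PLK2 also after treatment, at 27.2 against 3.99 CPM per kilobase. Further listed genes are overlapped by a counted gene on the opposite strand. GTPBP2 lies opposite POLH and went from 922 to 963 counts down to 227 to 245. NDUFAF6, opposite TP53INP1, went from 281 to 299 counts to 115 to 159. ENSG00000253653, opposite CYFIP2, went from 34 to 53 counts to 127 to 152. These neighbours moved against the listed gene, whereas POLH-AS1, opposite POLH, went up with it, from 25 to 34 counts to 127 to 154, and ADAM19, opposite CYFIP2, went down with it, from 9 to 13 counts to 0 to 5.

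**Figure D4:**
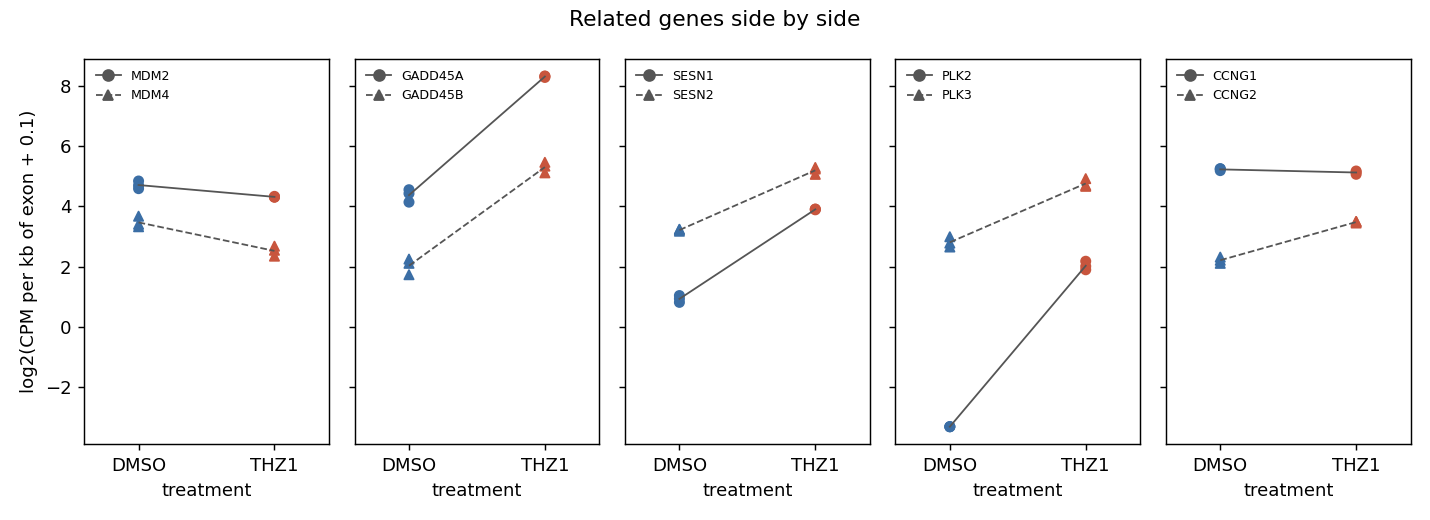
Level per kilobase of exon, as log2(CPM per kilobase + 0.1), of the genes of each related pair in every library, with circles and a solid line for the first gene and triangles and a dashed line for the second. MDM2 and MDM4 both decline from DMSO to THZ1, both GADD45 genes and both sestrins climb, and CCNG2 approaches CCNG1 from below.

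The listed genes also took a larger share of the counts, 0.143 to 0.158% with DMSO and 0.250 to 0.258% with THZ1. Their summed level on the TMM-scaled CPM, which is not a share of the counts, was 1348 to 1427 CPM with DMSO and 2739 to 2818 CPM with THZ1. GADD45A alone made up 2.37 to 3.35% of this sum with DMSO and 21.8 to 22.7% with THZ1. Without GADD45A the sums were 1303 to 1394 CPM and 2117 to 2199 CPM, which still did not overlap. Shorter genes on the list tended to have the higher fold changes. Across the 27 genes tested, the Spearman rho between genomic span and log2 fold change was −0.53 (median span 24753 bases), and across all 11929 protein-coding genes tested it was −0.34 (median 30680 bases). For exonic length it was −0.51 and −0.19. These values are across genes, which share libraries and are not independent replicates, and the part of gene length in the fold changes was not tested.

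The other genes of the pathway were counted in 3 lists taken from general knowledge. These lists too were made with earlier results of these data known, so their shares are descriptions. Of 64 further p53 targets, 58 were tested, and 36 (62.1%) were higher and 14 (24.1%) lower, with a median log2 fold change of 0.50. Of the 58, 4 had at most 3 counts in every DMSO-treated library, so these could not be called lower. Over all genes tested, 43.5% were higher and 41.1% lower, with a median of 0.03. With library sizes alone the split was 30 higher and 19 lower, against 6319 higher and 7985 lower over all genes tested. BBC3, which encodes the death activator PUMA, rose from a mean of 4.04 ± 0.335 CPM to 139.6 ± 2.99 CPM (SD, n = 3), with a log2 fold change of 5.11 (edgeR adjusted p = 1.2e-27). FOSL1, a subunit of the AP-1 transcription factor, rose by 5.51 on the log2 scale (edgeR adjusted p = 4.6e-22). Both were among the 3 strongest increases of the further targets at a mean of 10 CPM or more. At the other end, TNFAIP8, an inhibitor of apoptosis, had a log2 fold change of −2.83, ALDH4A1, an enzyme of proline breakdown, one of −1.99, and SYTL1, of vesicle transport, one of −1.37 (edgeR adjusted p = 1.1e-14, 1.6e-16 and 3.4e-14).

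Of the 39 genes that modify p53 or act with it, 7 were higher (17.9%), 21 lower (53.8%) and 11 not called, with a median log2 fold change of −0.35. Among the protein-coding genes tested the share lower was 47.6% and the median −0.20, so that the share lower was near the background. The share higher among them was 36.3%, so that the 17.9% of the list was below it. NCL and NPM1, abundant nucleolar proteins that can bind MDM2 or p53, went from means of 1727 ± 57.2 and 1521 ± 72.0 CPM to 422 ± 4.44 and 515 ± 33.4 CPM (SD, n = 3), with log2 fold changes of −2.03 and −1.56 (edgeR adjusted p = 1.6e-22 and 3.0e-19). SETD7, a lysine methyltransferase that acts on p53, was also lower, with a log2 fold change of −1.58 (edgeR adjusted p = 4.9e-16). RASSF1, a scaffold that restrains MDM2, rose by 1.78 on the log2 scale (edgeR adjusted p = 1.1e-18). The deacetylase HDAC1 and the corepressor TRIM28 rose by 1.22 and 0.96 (edgeR adjusted p = 5.0e-17 and 1.4e-13).

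The 20 cell cycle genes that are repressed through p53, p21 and the DREAM complex were split, with 9 higher (45%), 10 lower (50%) and 1 not called, shares near those of all genes tested (43.5% and 41.1%). Their median of −0.09 on the log2 scale turned positive with upper quartile factors (0.10) and with at least 10 counts in every library (0.041). CDC20 and PLK1, which drive mitosis, and KIF23, which acts in cell division, had log2 fold changes of 2.14, 1.74 and 1.33 (edgeR adjusted p = 2.7e-22, 8.4e-20 and 6.5e-17). AURKB, a mitotic kinase, CCNA2, a cyclin of DNA replication, and CDK1, the mitotic cyclin-dependent kinase, had −1.41, −1.26 and −1.20 (edgeR adjusted p = 1.6e-16, 1.4e-15 and 2.3e-15).

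**Figure D5:**
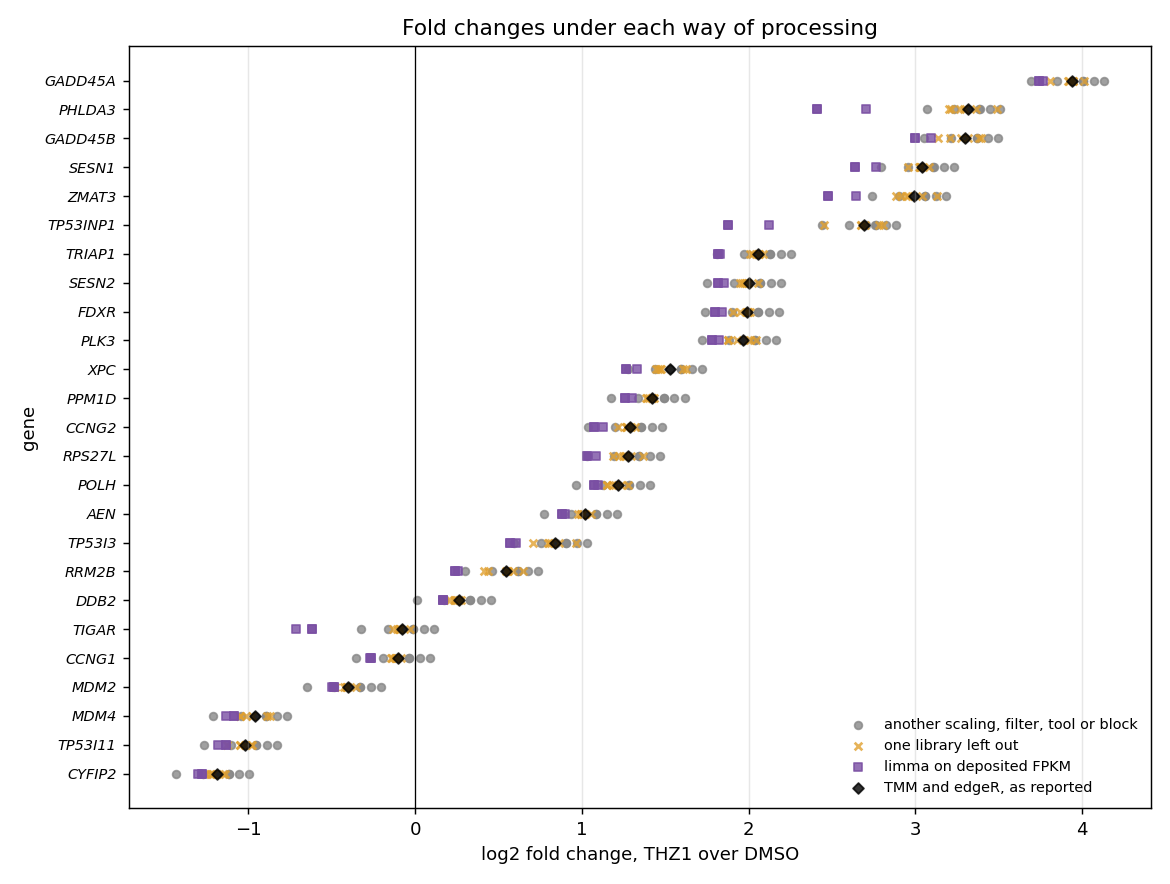
Log2 fold change of the listed genes under the main and the alternative processing, one row per gene, with black diamonds for the values reported, grey circles for another scaling, filter, tool or block, crosses for a library left out, squares for the FPKM values, and PLK2 and SFN left out because of their near-empty controls. Most genes stay on 1 side of zero, while TIGAR and CCNG1 lie on both sides.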

How the data were processed

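The RNA-SEQ libraries came from NALM6 cells, with 3 per treatment, grouped by their labels. Raw counts per gene were used as the authors deposited them. Per the methods, filtered reads had been mapped to GRCh37 with STAR and counted with htseq-count, and the submitters' processing notes also name cutadapt and RSEM. The gene annotation and the strand setting of the counting are not given in the sources used here. The authors also deposited FPKM values, which the methods assign to RSEM, on a log2 scale. These were read as log2(FPKM + 1) and served as an alternative, and their scale differs from the linear one that the design assumed. Sorted values of that table differed by a median of 0.00150 to 0.00170 between libraries of a treatment, against 0.00992 to 0.0604 for log2(CPM + 1) from the counts, so a further normalization, not given in the sources used here, is possible. The authors' fold changes, p-values and FDR values in that table were not used.

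Genes were filtered with edgeR's filterByExpr (at least 10 counts, at least 15 in total), scaled with TMM factors and tested with the quasi-likelihood test across all 16622 genes, two-sided, with Benjamini-Hochberg adjustment. The standard error is the log2 fold change divided by the square root of the F statistic. A gene with 0 counts in all libraries of a treatment was given a bound at 3 counts per library. The 31 genes and the further lists were chosen with earlier results of these data known. From each further list, the 3 highest and 3 lowest called genes were named, among those that averaged 10 CPM or more and did not overlap between treatments. SCO2 could not be matched to a single identifier and was not tested. Some results are not reported here. Coordinates, exon lengths and sequences are from GRCh37 with the GENCODE annotation.

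Other processing was tried. Scaling used upper quartile factors, RLE factors or library sizes alone, and DESeq2 replaced edgeR. The low-count filter was dropped, or tightened to 10 counts in all libraries. A replicate block was added, single libraries were left out, and limma was run on FPKM (pseudocount 1 or 0.1, mean FPKM 1 or more, or unfiltered). The count pipeline was checked on simulated counts. Total counts were 7876402 to 11164840 per library, and intervals and floors cover counting error only. R 4.3.3, edgeR 4.0.16, limma 3.58.1, DESeq2 1.42.0, Python 3.11.15, pandas 2.3.3, numpy 2.4.6 and matplotlib 3.10.9 were used.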

Additional observations from a re-analysis of the deposited data

How the results depend on the processing

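Between 19 and 21 of the listed genes were called higher and between 4 and 6 lower in all settings run. Over all genes tested, 5151 to 9944 were higher and 5421 to 7985 lower. With library sizes alone, 76.9% of the calls on the list and 44.2% of those over all genes were higher. Between 12 and 14 listed genes were higher by at least 1.5 on the log2 scale. For that threshold the share of all genes tested, 24.6%, was counted in the main setting only. Their median log2 fold change, 1.42, was 1.49 with RLE factors, 1.62 with upper quartile factors, 1.18 with library sizes alone, 1.49 with DESeq2 and 1.27 without a filter on low counts. The last value is over 29 genes, against 27 in the main fit, since EDA2R and TNFRSF10C, with few counts, enter it. On the FPKM values it was 1.26 with a pseudocount of 1, 1.30 with 0.1 and 1.26 without a filter, and it ranged from 1.38 to 1.43 when single libraries were left out. The median of all genes tested moved with the scaling, from 0.03 to 0.22 with upper quartile factors and to −0.22 with library sizes alone. With at least 10 counts in every library, PLK2 and SFN were not tested, which leaves 25 genes and 19 called higher. Where they were tested, the calls that changed were those of 4 genes with small fold changes. RRM2B was not called on the FPKM values (0.24 to 0.26), and DDB2 was not called with library sizes alone (0.01), without a filter (0.17) and on the FPKM values (0.17). TIGAR and CCNG1 became called lower with library sizes alone (−0.32 and −0.35) and on the FPKM values (−0.62 to −0.71 and −0.27), and CCNG1 also without a filter (−0.19). The cause was not tested, and the FPKM values may carry a further normalization. On the log2(FPKM + 1) scale, which understates changes of low genes, the log2 fold changes were 3.03 for PLK2, 4.23 for SFN, 2.41 for PHLDA3 and 1.88 for TP53INP1. The median of the cell cycle genes repressed through the DREAM complex reversed to 0.10 with upper quartile factors and to 0.041 with at least 10 counts in every library. Of the further targets, 30 were higher and 19 lower with library sizes alone, against 6319 and 7985 of all genes tested.

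Same-numbered libraries did not deviate together (correlations of −0.00400, 0.000969 and 0.0206), so the numbers were not taken as pairs. With the replicate block, 21 listed genes were higher and 4 lower, with a median of 1.42.

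The depth of the libraries left SPATA18, PERP, EDA2R and TNFRSF10C without a test, and the counts of SFN and PLK2 in the DMSO-treated libraries are too few for a precise fold change.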
